A study of Mus musculus with 11 samples.

Results

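Cocaine was compared with saline in the nucleus accumbens of mice that carried a virus for green fluorescent protein (GFP), across all 14667 genes of the table that the authors deposited for this comparison. The groups, taken from the sample titles, were GFP mice given cocaine (3 libraries) and GFP mice given saline (4 libraries), 7 of the 11 libraries of the study. Every mouse was of the C57/BL6 strain, with viral overexpression of GFP in both groups and 1 mouse per library. The remaining 4 libraries came from mice of the same strain with viral overexpression of E2F3a, a transcription factor of the E2F family, under saline. The sources used here do not state age, dose or the time after the last injection. A virus infects only some cells near the injection site, and the dissected tissue also holds cells that it did not reach.

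The nucleus accumbens is the ventral part of the striatum. Most of its neurons are medium spiny neurons, which use GABA, receive glutamate from cortex, thalamus, hippocampus and amygdala, and carry either D1 or D2 dopamine receptors. Cocaine blocks the dopamine transporter, so that dopamine stays longer outside the cell and acts on those receptors. Repeated exposure is known to alter glutamate receptors, dendritic spines and gene expression in these neurons. The comparison asks which transcripts differ between cocaine and saline when the virus carries only the GFP control.

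The deposited values are comparison statistics, not levels per mouse. Each gene has a log2 fold change of cocaine over saline, a mean log2 expression over libraries, a moderated t and p-values. What each mouse expressed, and how deeply its library was sequenced, is therefore unknown, and no statement can be made on overlap between single mice. The standard errors (SE) and 95% intervals below were derived from the deposited log2 fold change and its t, with a median SE of 0.157 over all genes. The deposited mean expression was the same for every gene in the E2F3a comparison, so it appears to pool the E2F3a libraries too. Marker levels and expression cutoffs below rest on that mean. Markers of medium spiny neurons were strongly expressed. On a scale of CPM per kilobase of the longest annotated transcript, the mean level in the authors' deposited table was 668 for Penk (enkephalin), 318 for Ppp1r1b (DARPP-32), 59.0 for Drd1a (the D1 receptor) and 32.5 for Drd2 (the D2 receptor). Of 10 markers of cortical excitatory neurons 5 were in the table, and Slc17a7, their vesicular glutamate transporter, had a mean level of 2.47 on the same scale. E2f3 itself stood at -0.08 (SE 0.22) per the authors' deposited table.

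No gene passed the authors' moderated test after Benjamini-Hochberg adjustment (0 of 14667 at an adjusted p under 0.05), and the smallest adjusted p was 0.533. At an unadjusted p under 0.05 there were 1356 genes (9.25% of all), of which 255 were higher with cocaine (1.74%) and 1101 lower (7.51%). A fold change over 1.5 was more often downward, with 366 genes higher (2.5%) and 881 lower (6.01%). Estimates above 0 numbered 6780 (46.2%) and those below 0 numbered 7887 (53.8%), a more even split than among the genes at p under 0.05. The split of the 1356 genes was 18.8% higher. It became 30.4% when the median of genes of like expression was subtracted (389 higher, 891 lower), and 6.3% when the median of the genes above the 75th percentile of expression was subtracted (108 higher, 1606 lower). Since 0 genes passed the adjusted threshold, all gene values and counts below are descriptions, and "at p under 0.05" means the authors' unadjusted p.

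Genes were grouped into 120 lists by function, symbol family or cell type, which together held 3705 genes (25.3% of the table). The lists were described by their median and their counts, without a test. Most members lay above 0 in 62 lists and below 0 in 54.

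The fold changes followed transcript length. Protein-coding genes were cut by the length of their longest transcript into 10 groups of equal size. The median log2 fold change of cocaine over saline was -0.19 in the shortest group (27 to 1460 bases) and 0.18 in the longest (6934 to 123179 bases), with each group above the next shorter one. The share of estimates above 0 was 15.7% in the shortest group and 83.5% in the longest. At p under 0.05, 5 genes of the shortest group were higher (0.378%) and 172 lower (13.0%). In the longest group 64 were higher (4.83%) and 9 lower (0.68%), against 1.74% and 7.51% of all genes. A further cut left out the genes of the immune, matrix, p53 and apoptosis, cell division, blood, leukocyte, microglia, astrocyte, endothelial, mural and meningeal lists. The medians of the shortest and longest groups were then -0.19 and 0.19. For E2F3a over GFP, which uses the same GFP mice given saline, the medians of the shortest and longest groups were -0.09 and 0.11. That comparison had 0 genes at an adjusted p under 0.05 in the authors' moderated test and 140 at an unadjusted p under 0.05 (0.955%), of which 80 were higher with E2F3a (0.545%) and 60 lower (0.409%). Its estimates lay above 0 for 52.5% of genes and below 0 for 47.5%, and fold changes over 1.5 were upward for 1.35% and downward for 0.825%. RNA quality, library depth and the saline libraries themselves could not be examined without values per library, and their part in this trend was not tested. For many lists below, the median is therefore also given with the median of genes of like length (20 bins) subtracted, under the name length-centred median. A median printed without that name is as deposited and may hold part of the length trend.

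**Figure D1:**
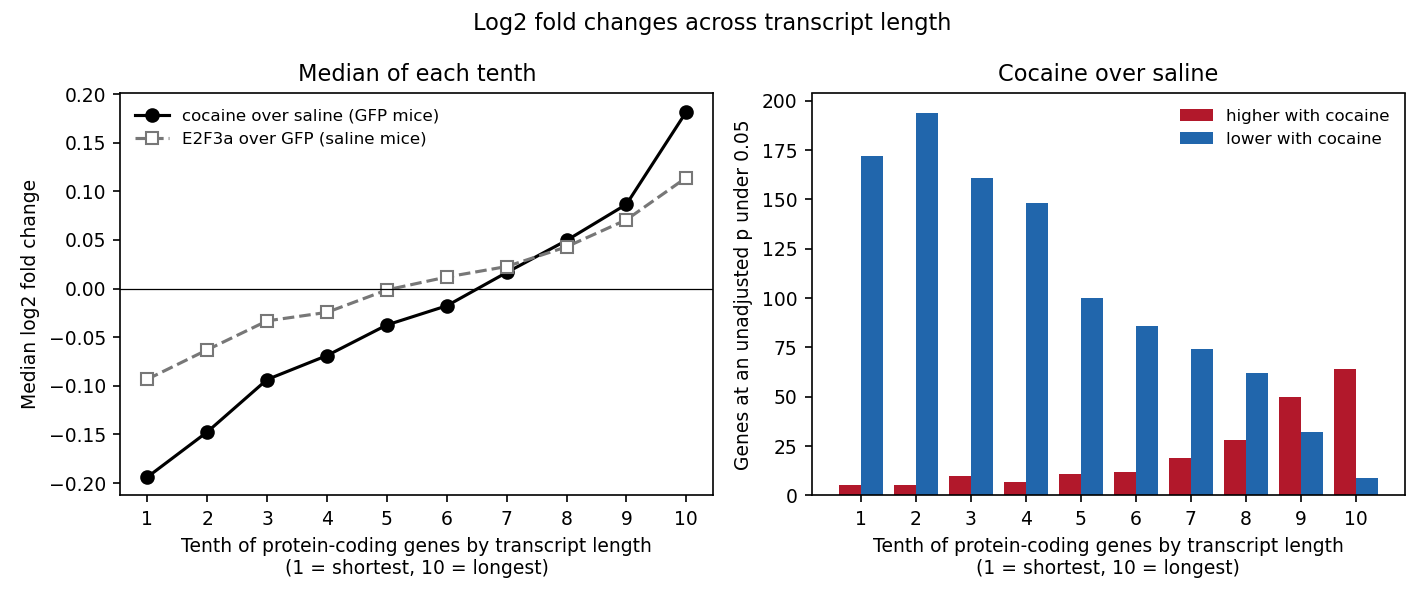
Left, median log2 fold change (y axis) of protein-coding genes in 10 groups of equal size by transcript length (x axis), for cocaine over saline (filled circles) and E2F3a over GFP (open squares); both comparisons use the GFP mice given saline. Right, number of genes at an unadjusted p under 0.05 that were higher (red) or lower (blue) with cocaine; the median is -0.19 in the shortest group and 0.18 in the longest, and the lower genes sit in the shorter groups.

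Fold changes were ranked among genes at p under 0.05 above an expression floor, the 25th percentile of mean expression (log2 3.21). The 12 with the largest increases included 1 astrocyte enzyme and several genes of neurons. The largest of the 12 was Etnppl, an astrocyte enzyme that breaks down phosphoethanolamine (ENSMUSG00000019232, mm10 chromosome 3, 130617448 to 130637521, plus strand, protein-coding). The authors' deposited table lists Etnppl at a log2 fold change of 2.01 (SE 0.70, 95% interval 0.48 to 3.54, unadjusted p = 0.0143), a fold of 4.03. Next of the 12 came Greb1l, a gene needed for kidney development, at 1.04 (SE 0.35) per the authors' deposited table. Several of the other 10 genes act at membranes and synapses. In the authors' deposited table Sytl5, a synaptotagmin-like partner of Rab27, stood at 0.89 (SE 0.36), and Syt10, a synaptotagmin that senses calcium for the release of IGF-1, at 0.87 (SE 0.30). Camk1g, a calcium/calmodulin kinase of neurons, stood at 0.78 (SE 0.30) per the authors' deposited table, and Syn3, a synapsin of synaptic vesicles, at 0.70 (SE 0.27). Kcnh5, a voltage-gated potassium channel, was at 0.68 (SE 0.29), Plxna4, a receptor for semaphorins, at 0.67 (SE 0.24), and Dok6, an adaptor of the Ret receptor, at 0.73 (SE 0.33) per the authors' deposited table. The last of the 12 were Pdzd2 at 0.76, the giant cadherin Dchs2 at 0.75 and the imprinted gene Dlk1 at 0.68 per the authors' deposited table. Genes below the floor were left out of the ranking, among them Fmod at 1.26 per the authors' deposited table. Plin4, Pde11a, Oprm1 and Fgf10, named further below, were also under that floor.

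Above the same expression floor, the 12 genes with the largest decreases at p under 0.05 belong, in the main, to blood and immune cells. Ms4a7, a membrane protein of macrophages (ENSMUSG00000024672, mm10 chromosome 19, 11321039 to 11336146, minus strand, protein-coding), stood at -2.01 (SE 0.59, 95% interval -3.30 to -0.72, unadjusted p = 0.00552) per the authors' deposited table. T cell genes among them were Cd3g at -1.76, Trbc2, a constant segment of the T cell receptor, at -1.56 and Cd8b1 at -1.47 per the authors' deposited table. Il7r, the interleukin-7 receptor of lymphocytes, stood at -1.47 (SE 0.61) and Cxcr4, a chemokine receptor, at -1.49 (SE 0.45) per the authors' deposited table. Ly6c2 at -1.72 and Ly6i at -1.46 are surface proteins of monocytes and other leukocytes in the same authors' deposited table. Igfbp2 at -1.48 (SE 0.34), which binds insulin-like growth factors, is not an immune gene, and the globin genes Hba-a2 and Hbb-bs at -1.58 and -1.54 are those of red cells in the authors' deposited table. Gm14446 at -1.67 (SE 0.71) completes the 12 per the authors' deposited table. Left out below the floor were, among others, Cd79a at -2.34 and the globin gene Hbb-bt at -1.65 per the authors' deposited table. The globin genes have nearly identical copies, so reads can be split between copies either way.

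**Figure D2:**
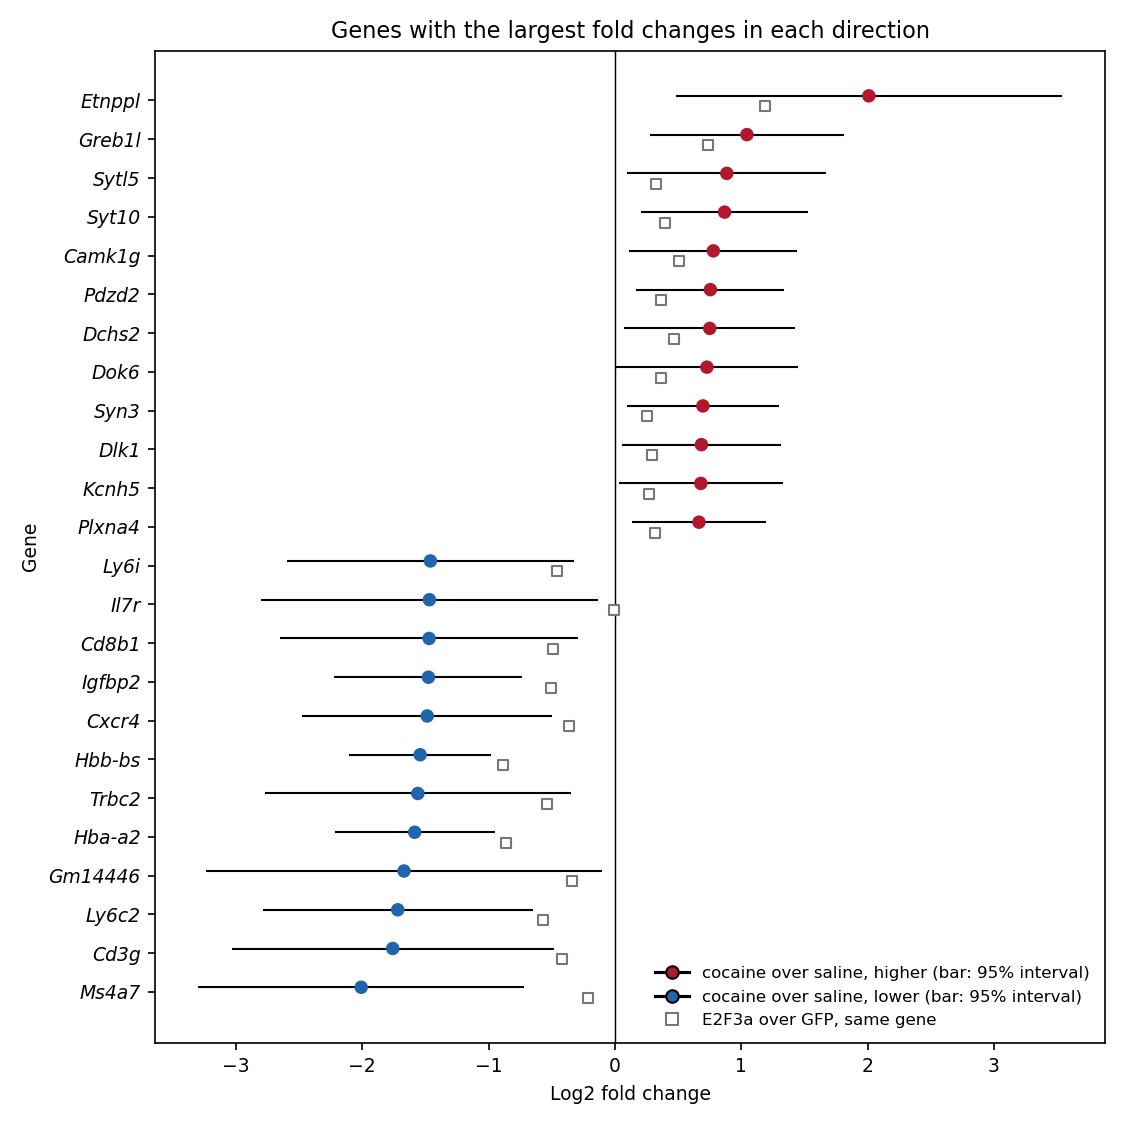
Log2 fold change (x axis) of the 12 genes with the largest increase and the 12 with the largest decrease (y axis), cocaine over saline, as filled circles with 95% intervals. The genes were ranked among those at an unadjusted p under 0.05 and above the 25th percentile of mean expression. Open squares give E2F3a over GFP for the same genes without an interval; Etnppl stands at 2.01 and Ms4a7 at -2.01 with cocaine.

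In bulk tissue, fewer cells of a type and less RNA per cell cannot be told apart, which touches every cell type list. Blood and immune markers lay lowest: 5 of 5 blood genes were below 0 (median -1.54), as were 11 of 11 leukocyte markers (median -1.16) and 12 of 12 microglia markers (median -0.41). Lower at p under 0.05 were 5 blood, 8 leukocyte and 5 microglia genes (100%, 72.7% and 41.7%, against 7.51% of all genes). With E2F3a over GFP, against the same saline mice, 5 of 5 blood genes were below 0 (median -0.87, all 5 at p under 0.05), as were 10 of 11 leukocyte markers (median -0.49, 2 at p under 0.05) and 6 of 12 microglia markers (median -0.00). Of all genes, 0.955% were at p under 0.05 in that comparison. With cocaine, endothelial markers had a median of -0.13 with 4 of 10 lower at p under 0.05. Meningeal fibroblast markers had a median of -0.18 with 5 above 0 and 8 below. Medium spiny neuron markers had 14 of 16 estimates above 0 with a median of 0.10, and 0 at p under 0.05. The median SE of that list was 0.36, above the 0.157 of all genes. Drd1a stood at 0.09 (SE 0.32) and Drd2 at 0.12 (SE 0.36) per the authors' deposited table. The astrocyte list was mixed, with a median of 0.05. Its members Gfap, the intermediate filament of astrocytes, at -0.60 (SE 0.25) and Aldh1l1, a folate enzyme, at -0.50 (SE 0.17) lay lower in the authors' deposited table. Septal and basal forebrain markers had 6 of 7 above 0 (median 0.30, 0 at p under 0.05) and cortical markers 1 of 5 (median -0.34).

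Receptors of neurotransmitters and ion channels formed the group that lay highest. Of 270 genes in 14 lists, 213 had an estimate above 0 (78.9%, against 46.2% of all genes), the median was 0.18 and the length-centred median 0.14. At p under 0.05, 12 were higher (4.44%, against 1.74% of all genes) and 2 lower (0.741%, against 7.51%). All 16 measured subunits of GABA-A and GABA-B receptors, the receptors of the main inhibitory transmitter, lay above 0 (median 0.31, length-centred 0.25). Gabra2, the alpha 2 subunit of the GABA-A receptor (ENSMUSG00000000560, mm10 chromosome 5, 70957597 to 71095849, minus strand), was the 1 member at p under 0.05, at 0.34 (SE 0.13) per the authors' deposited table. All 17 ionotropic glutamate receptor subunits lay above 0 as well (median 0.26, length-centred 0.16), and Grik2, a kainate receptor subunit, stood at 0.33 (SE 0.14) per the authors' deposited table. All 5 metabotropic glutamate receptors lay above 0 (median 0.25, length-centred 0.15). Grm7 at 0.32 (SE 0.17) and Grm5 at 0.28 (SE 0.16) per the authors' deposited table led them, neither at p under 0.05. Against the same saline mice, E2F3a over GFP had 12 of 16 GABA receptor subunits above 0 (median 0.14). There 12 of 17 ionotropic (median 0.09) and 1 of 5 metabotropic glutamate receptor genes (median -0.02) lay above 0.

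Receptors of peptides lay higher in 18 of 22 cases (median 0.26, length-centred 0.25). E2F3a over GFP, against the same saline mice, also had 18 of 22 above 0 (median 0.12). With cocaine, Oprm1, the mu opioid receptor on which morphine acts (ENSMUSG00000000766, mm10 chromosome 10, 6758506 to 7038198, plus strand), stood at 1.07 (SE 0.35, 95% interval 0.30 to 1.84, unadjusted p = 0.0106) per the authors' deposited table, a fold of 2.1. Its mean expression lay under the floor of the fold ranking. The peptides themselves were less even, with 13 of 21 above 0 and 0 at p under 0.05. Acetylcholine receptors lay above 0 in 8 of 9 cases and serotonin receptors in 9 of 11, with 0 at p under 0.05 in both. Dopamine receptors and the cAMP pathway had 17 of 21 above 0 but a median of 0.09. Prkacb, a catalytic subunit of protein kinase A, was at 0.26 (SE 0.13) per the authors' deposited table. Among phosphodiesterases, which break down cyclic AMP and GMP, 12 of 17 lay above 0. Pde11a at 1.40 (SE 0.48), Pde4d at 0.46 (SE 0.20) and Pde1c at 0.41 (SE 0.17) were higher at p under 0.05 per the authors' deposited table, and Pde3b was lower at -0.33 (SE 0.14).

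Voltage-gated calcium channels had 18 of 21 subunits above 0 (median 0.24, length-centred 0.16). Cacna1e at 0.52 (SE 0.22) and Cacna1b at 0.43 (SE 0.19), the pore subunits of R-type and N-type channels, and the auxiliary subunit Cacnb2 at 0.34 (SE 0.15) were higher at p under 0.05 per the authors' deposited table. Potassium channels had 49 of 66 above 0 (median 0.16, length-centred 0.10). Kcnn4, a calcium-activated channel of blood and immune cells, stood at -1.16 (SE 0.46) per the authors' deposited table. Sodium channels had a median of 0.21, and of -0.00 once length was subtracted; their median transcript length of 8386 bases was the longest of the 14 receptor and channel lists. Scn3b, an auxiliary subunit, was at 0.28 (SE 0.11) per the authors' deposited table. Against the same saline mice, E2F3a over GFP had 11 of 21 calcium, 43 of 66 potassium and 4 of 9 sodium channel genes above 0.

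Of 505 genes of the synapse and neuronal structure, 337 lay above 0 (66.7%, median 0.11, length-centred 0.07). At p under 0.05 they were balanced, with 27 higher and 27 lower (5.35% each, against 1.74% and 7.51% of all genes). Release machinery of synaptic vesicles had 44 of 52 members above 0 (median 0.16, length-centred 0.13), 8 higher (15.4%, against 1.74% of all genes) and 0 lower at p under 0.05. Beside Syt10 and Syn3, Unc13c, which primes vesicles, stood at 0.56 (SE 0.21) and Rims2, an active zone scaffold, at 0.49 (SE 0.20) per the authors' deposited table. Synaptic adhesion molecules had 49 of 56 above 0 (median 0.18, length-centred 0.11). Cntnap5a at 0.45, Slitrk4 at 0.41 and Cntnap2 at 0.35, all adhesion proteins of neurons, were higher at p under 0.05 per the authors' deposited table. Protocadherins, which give neurons their surface identity, had 39 of 43 above 0 (median 0.23, length-centred 0.20). Pcdhb19 stood at 0.52 (SE 0.23), Pcdh10 at 0.33 (SE 0.14) and Pcdhga6 at 0.33 (SE 0.13) per the authors' deposited table. Genes of the gamma cluster share their last exons, so reads there cannot be given to 1 member. Against the same saline mice, E2F3a over GFP had 35 of 43 protocadherins above 0 (median 0.11). There 35 of 56 adhesion and 27 of 52 vesicle release genes lay above 0 (medians 0.04 and 0.00).

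Postsynaptic scaffolds had 21 of 23 above 0 (median 0.26, length-centred 0.17). Shank2 stood at 0.47 (SE 0.19) per the authors' deposited table. Dlgap5 of the same symbol family, a protein of the mitotic spindle, stood at -0.89 (SE 0.26) there. All 8 ankyrins and spectrins lay above 0 (median 0.32, length-centred 0.13), with 0 at p under 0.05. Guidance receptors were split by family: slits, robos and netrin genes had 13 of 16 above 0, with Robo1 at 0.39 (SE 0.17) per the authors' deposited table, and semaphorins, plexins and neuropilins had 16 of 30. Plxna4 and Plxna2 (0.51, SE 0.20) were the 2 members of the semaphorin list at p under 0.05 per the authors' deposited table. Against the same saline mice, E2F3a over GFP had 14 of 16 slit, robo and netrin genes above 0 (median 0.14). There 14 of 23 postsynaptic scaffolds lay above 0 (median 0.05). With cocaine, kinesins held both directions, with 20 of 33 above 0 (median 0.09, length-centred 0.05). At p under 0.05, however, 8 were lower (24.2%, against 7.51% of all genes) and 1 higher (3.03%, against 1.74%). The lower ones named here, Kif4 at -0.99, Kif2c at -0.93, Kif23 at -0.77 and Kif22 at -0.76 per the authors' deposited table, are motors of cell division. Tubulins had 13 of 19 below 0, with Tuba1c at -0.99 (SE 0.35) and Tubb6 at -0.60 (SE 0.25) per the authors' deposited table. Activity-induced genes had a median of -0.13 (length-centred -0.04) with 5 of 28 lower at p under 0.05 (17.9%, against 7.51% of all genes). Among the 5 was Nptx2, a pentraxin that clusters glutamate receptors, at -0.62 (SE 0.22) per the authors' deposited table. Against the same saline mice, E2F3a over GFP gave the activity-induced list a median of -0.13. There 21 of 28 were below 0 and 4 were at p under 0.05 (0.955% of all genes were). Medium spiny neuron markers, with 14 of 16 above 0, lay in the same direction as these neuronal lists, and their part was not tested.

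**Figure D3:**
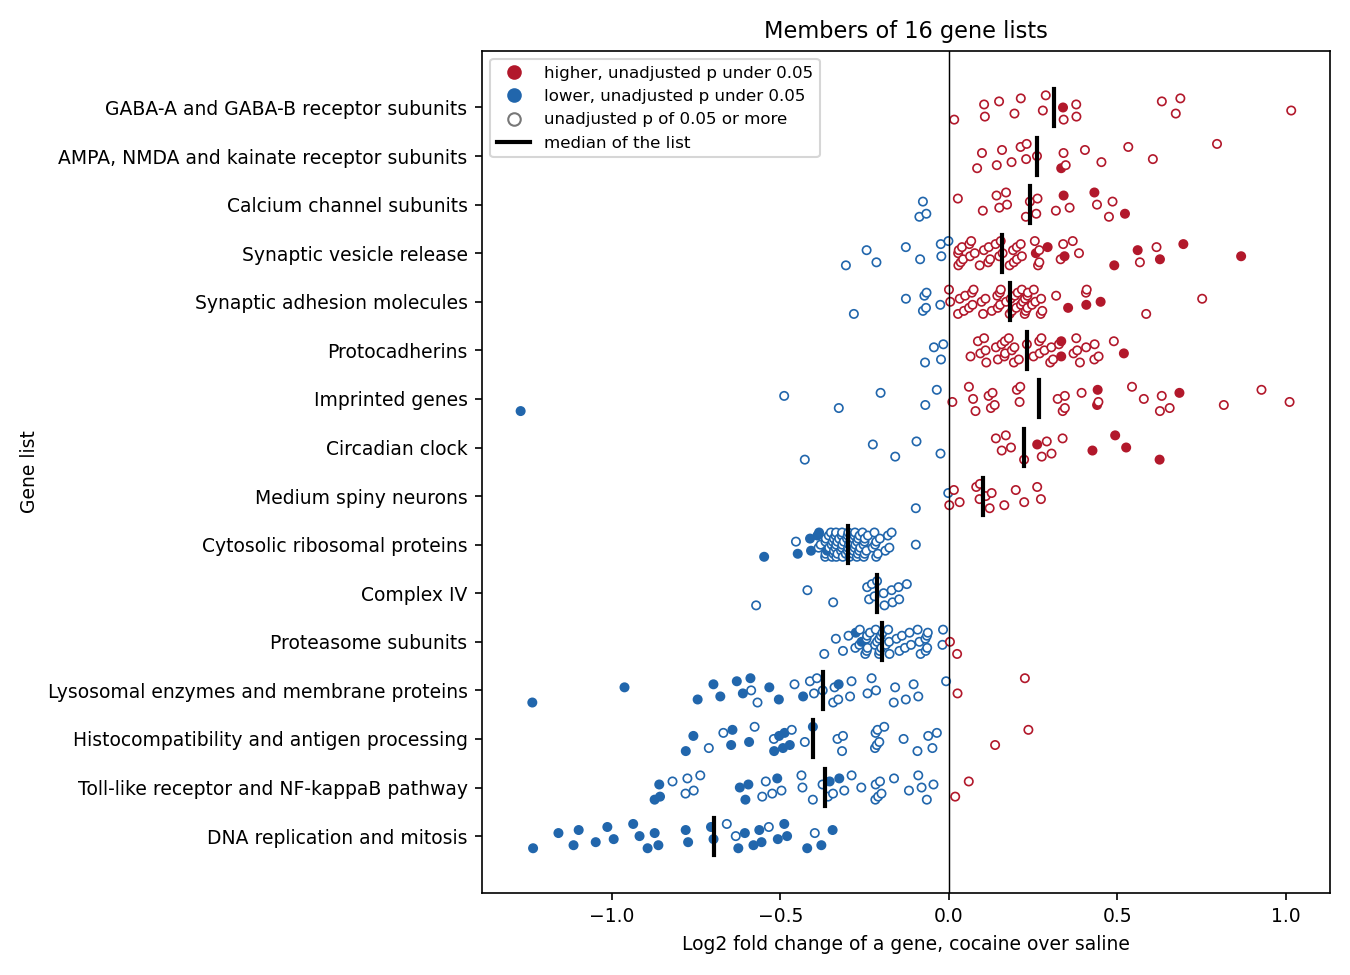
Log2 fold change of single genes (x axis), cocaine over saline, in 16 gene lists (y axis). Filled points are at an unadjusted p under 0.05, red higher and blue lower, open points are not, and black bars are list medians; all 16 GABA receptor subunits lie above 0 and all 81 cytosolic ribosomal proteins below.

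Growth factor and hormone pathways were largely balanced, with 245 of 433 genes above 0 (median 0.04). Neurotrophins and their receptors had 10 of 13 above 0 (median 0.25, length-centred 0.14). Gdnf, a survival factor of dopamine neurons (ENSMUSG00000022144, mm10 chromosome 15, 7810846 to 7837575, plus strand), stood at 0.66 (SE 0.24), Ntrk2, the BDNF receptor, at 0.37 (SE 0.16) and Sorcs3, a sorting receptor, at 0.36 (SE 0.14) per the authors' deposited table. Glucocorticoid-induced genes had 14 of 22 above 0, 4 higher and 1 lower at p under 0.05 (18.2% and 4.55%, against 1.74% and 7.51% of all genes). Plin4, a coat protein of lipid droplets, stood at 1.76 (SE 0.56) and Zbtb16, a zinc finger repressor, at 0.94 (SE 0.42) per the authors' deposited table. The list median was 0.14 with cocaine. With E2F3a over GFP, against the same saline mice, it was 0.29, with 19 of 22 above 0 and 4 at p under 0.05 (0.955% of all genes were). In that comparison the authors' deposited table gives 1.07 for Plin4 and 0.38 for Zbtb16.

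Clock genes had 14 of 19 above 0 (median 0.22, length-centred 0.21). Against the same saline mice, E2F3a over GFP had 15 of 19 above 0 (median 0.09), with 3 at p under 0.05 (0.955% of all genes were). With cocaine, 5 were higher at p under 0.05 (26.3%, against 1.74% of all genes) and 0 lower (against 7.51%). The 5 were Per1 at 0.49, Per2 at 0.63, Per3 at 0.53, Ciart at 0.43 and Nr1d2 at 0.26 per the authors' deposited table, all repressors of the loop. Other repressors, Nr1d1 at 0.28 (SE 0.17), Cry2 at 0.17 (SE 0.13) and Cry1 at 0.14 (SE 0.14) per the authors' deposited table, were not at p under 0.05. The output factors Dbp at 0.34, Tef at 0.31 and Hlf at 0.29 lay above 0 without reaching p under 0.05 per the authors' deposited table. Below 0 per the authors' deposited table were Arntl, which activates the repressors, at -0.16 (SE 0.10), Nfil3, which opposes Dbp, at -0.43 (SE 0.31), Rorb at -0.23, Bhlhe40 at -0.10 and Rora at -0.02. CLOCK and ARNTL bind the E-box CACGTG, a palindrome that reads the same on both strands. In windows from 250 bases before to 50 after the RefSeq gene start (GRCm38.p6), it was found in 5 of 17 clock genes (29.4%) and in 1196 of 10351 genes of the table with such a window (11.6%). Of the clock genes at p under 0.05, Ciart and Per1 hold it, Per3 and Nr1d2 do not, and Per2 had no such window. The carriers Cry1, Tef and Bhlhe41 were not at p under 0.05. The stretches upstream of Ciart and Per1 are shown because both genes hold the E-box and were at p under 0.05 (E-box in capitals, 5′ to 3′ on the strand of the gene).
Ciart, chr3:95882279-95882404, minus strand: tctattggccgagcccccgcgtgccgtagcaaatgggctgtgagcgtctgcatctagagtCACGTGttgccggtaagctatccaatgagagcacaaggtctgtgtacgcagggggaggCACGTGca
Per1, chr11:69098723-69098848, plus strand: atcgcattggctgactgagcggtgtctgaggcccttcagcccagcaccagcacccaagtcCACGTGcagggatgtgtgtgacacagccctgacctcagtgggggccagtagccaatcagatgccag
The hour of dissection is unknown here, and its part in the clock values was not tested.

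Single members of the other pathways were read as values. In the BMP, activin and TGF-beta list, 18 above 0 and 24 below, Acvr2a, an activin receptor, stood at 0.41 (SE 0.09) with Fstl4, a follistatin-like protein, at 0.65 (SE 0.29), and Chrdl1, a BMP antagonist made by astrocytes, at -1.09 (SE 0.28) with Acvrl1, a receptor of endothelium, at -0.45 (SE 0.14) per the authors' deposited table. Fgf10, a fibroblast growth factor, stood at 0.90 (SE 0.41) per the authors' deposited table. Among MAP kinase genes, 33 above 0 and 32 below, the phosphatases Dusp2 at -1.20 (SE 0.36) and Dusp5 at -0.69 (SE 0.19), which inactivate MAP kinases, lay lower in the authors' deposited table. The kinases Map2k6 at 0.44 (SE 0.17) and Map3k12 at 0.30 (SE 0.11) lay higher in the authors' deposited table. Regulators of G protein signalling had 7 of 18 above 0. Rgs17 stood at 0.44 (SE 0.15), and Rgs1, of lymphocytes, at -1.15 (SE 0.46) per the authors' deposited table.

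Of 617 genes for making, folding and breaking down protein, 424 lay below 0 (68.7%, median -0.11, length-centred -0.05), with lists on both sides. All 81 measured cytosolic ribosomal proteins were below 0 (median -0.30, range -0.55 to -0.10), and 7 were lower at p under 0.05 (8.64%, close to the 7.51% of all genes), with 0 higher. Their transcripts are short, with a median of 1094 bases. Subtracting the length trend left a median of -0.17, with 79 below and 2 above 0. Rps27l, a ribosomal protein induced by p53, stood at -0.55 (SE 0.23), Rpl18 at -0.45 (SE 0.16), Rpl10a at -0.41 (SE 0.17) and Rps9 at -0.39 (SE 0.16) per the authors' deposited table. Reads of ribosomal proteins can also come from their many processed pseudogenes. With E2F3a over GFP, against the same saline mice, 77 of the 81 were below 0 with a median of -0.09.

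Ribosomal protein transcripts are known to start with a run of pyrimidines, the tract through which their translation is controlled by mTOR. The motif CTTTC on the gene's own strand within 20 bases of the RefSeq start was found in 19 of 60 ribosomal protein genes (31.7%) and in 622 of 10351 genes of the table (6.01%). On the opposite strand the shares were 5.0% and 4.67%. Of the 7 members at p under 0.05, Rpl18, Rpl7a and Rpl35 carry it and Rps9, Rpl10a, Rps27l and Rplp0 do not. The start sites of the 3 with the motif are shown, beside Rps9 as one without it (motif in capitals, GRCm38.p6, 5′ to 3′).
Rpl18, chr7:45718066-45718095, plus strand: aggccgctCTTTCcccgcccactccggcgc
Rps9, chr7:3704031-3704060, plus strand: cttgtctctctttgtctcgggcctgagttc
Rpl7a, chr2:26910794-26910823, plus strand: tccctcttCTTTCTTTCtccagcagccgag
Rpl35, chr2:39005115-39005144, minus strand: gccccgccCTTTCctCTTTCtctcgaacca

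Mitochondrial ribosomal proteins had 70 of 76 below 0 (median -0.16, length-centred -0.05), led by Mrps6 at -0.46 (SE 0.18) per the authors' deposited table. Proteasome subunits had 44 of 46 below 0 (median -0.20, length-centred -0.06), with Psmd4 at -0.28 (SE 0.12) and Psmc3 at -0.26 (SE 0.11) per the authors' deposited table. Against the same saline mice, E2F3a over GFP had 69 of 76 mitochondrial ribosomal proteins (median -0.10) and 43 of 46 proteasome subunits (median -0.09) below 0. With cocaine, translation factors had 49 of 60 below 0 (median -0.13, length-centred -0.07). Eif4ebp1, which holds back translation when mTOR is inactive, stood at -0.68 (SE 0.25) per the authors' deposited table. The lysosome list kept most of its size once length was taken into account: 33 of 35 genes lay below 0 (median -0.37, length-centred -0.33). Of these, 12 were at p under 0.05 (34.3% of the list, against 7.51% of all genes). The cathepsins Ctsk at -1.24 (SE 0.47), Ctsh at -0.96 (SE 0.32) and Ctsz at -0.70 (SE 0.26), proteases of the lysosome, and Npc2, which carries cholesterol out of it, at -0.68 (SE 0.23) led the list in the authors' deposited table. Microglia, whose 12 markers were all below 0, are rich in lysosomal enzymes, and their part was not tested. Small heat shock proteins Hspb6 at -0.79 (SE 0.18) and Hspb8 at -0.41 (SE 0.16) lay lower in a chaperone list that was otherwise balanced, 35 above 0 and 41 below, in the authors' deposited table. Several lists of protein breakdown lay the other way. Large HECT ubiquitin ligases had 21 of 25 above 0 (median 0.16, length-centred 0.05), USP deubiquitinases 35 of 46 (median 0.09, length-centred 0.03) and Kelch-like and BTB ligase adaptors 51 of 73 (median 0.07, length-centred 0.06). Autophagy genes had 15 of 28 above 0 (median 0.02).

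Energy metabolism lay lower by small amounts. All 15 subunits of complex IV (median -0.21) and all 17 of ATP synthase (median -0.17) were below 0, as were 43 of 45 of complex I (median -0.14). None of these 77 genes was at p under 0.05 by the authors' moderated test, adjusted or not, and the length-centred medians were -0.05, -0.03 and 0.01. Against the same saline mice, E2F3a over GFP had 13 of 15 complex IV genes below 0 (median -0.09). The same held there for 17 of 17 ATP synthase genes (median -0.11) and 44 of 45 of complex I (median -0.09). With cocaine, the enzymes that burn fatty acids had 17 of 19 below 0 and kept a length-centred median of -0.16. Of these, 5 were at p under 0.05 (26.3% of the list, against 7.51% of all genes). Among the 5 were Slc25a20, the carnitine carrier, at -0.37 (SE 0.10), Cpt2, which frees fatty acids from carnitine, at -0.37 (SE 0.15) and Acads, a dehydrogenase of short fatty acids, at -0.45 (SE 0.19) per the authors' deposited table. Cholesterol synthesis had 20 of 25 below 0 (median and length-centred median -0.13), with the enzymes Msmo1 at -0.29 and Nsdhl at -0.25 per the authors' deposited table. Antioxidant genes had 24 of 31 below 0 (median -0.16, length-centred -0.08). At p under 0.05, 10 were lower (32.3%, against 7.51% of all genes) and 1 higher (3.23%, against 1.74%). Gpx8 at -0.81 (SE 0.23) and Gpx1 at -0.40 (SE 0.14), glutathione peroxidases, and Osgin1 at -0.73 (SE 0.24) lay lower in the authors' deposited table. Slc7a11, which brings in cystine for glutathione, was the 1 higher member, at 0.36 (SE 0.11) per the authors' deposited table.

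**Figure D4:**
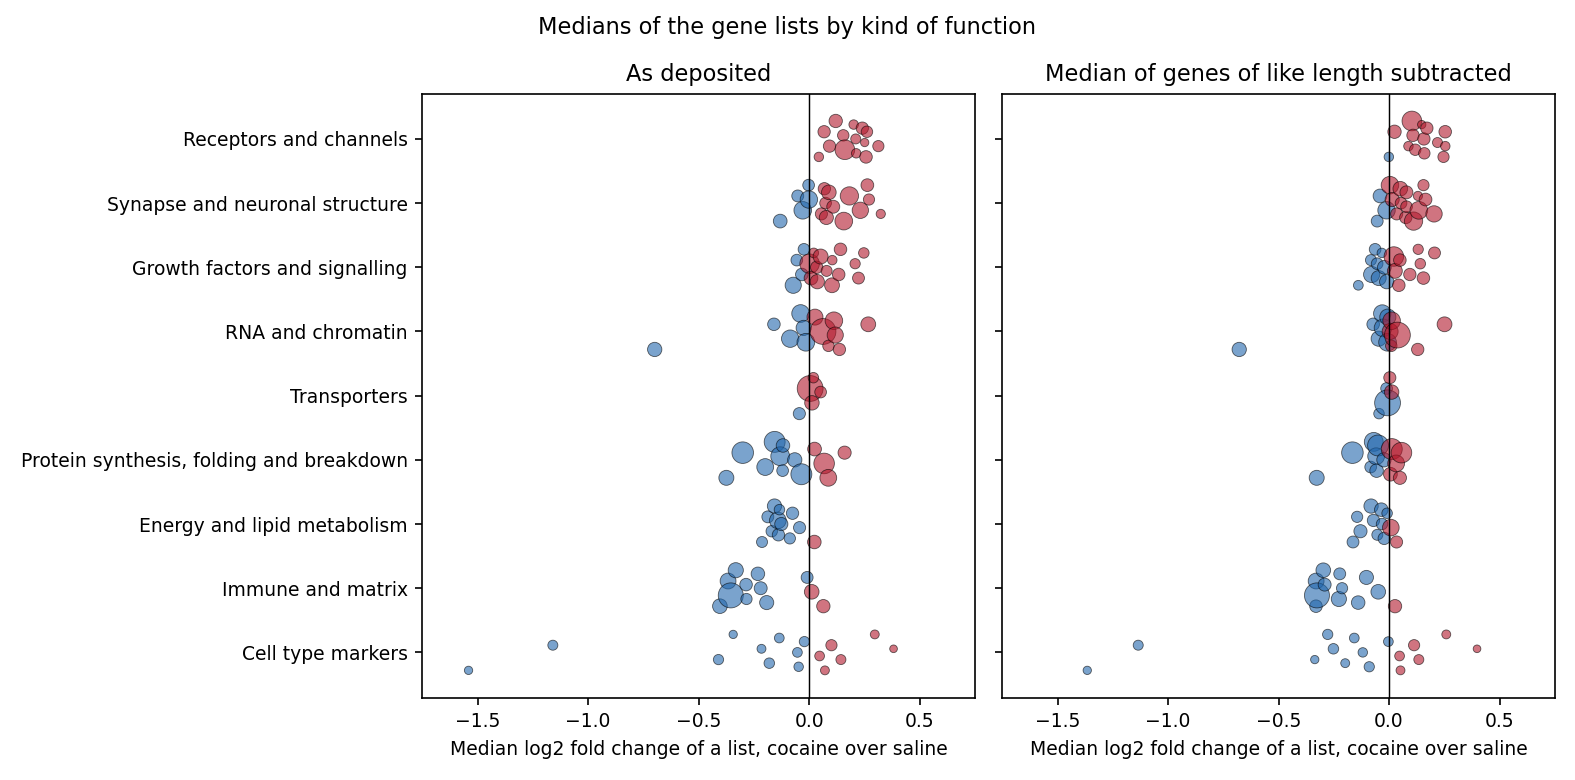
Median log2 fold change of each of 120 gene lists (x axis), cocaine over saline, by kind of function (y axis), as deposited on the left and with the median of genes of like transcript length subtracted on the right. Point size follows the number of genes, red lies above 0 and blue below; the medians of the complex I, complex IV and ATP synthase lists lie close to 0 on the right, and those of the histocompatibility and Toll-like receptor lists stay below.

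Immune and matrix genes held the largest share of lower genes among the 9 groups of lists, next to 19.6% for the cell type markers. Of 417 genes, 330 were below 0 (79.1%, against 53.8% of all genes) and 82 were lower at p under 0.05 (19.7%, against 7.51%), with 4 higher. The median was -0.25 both as deposited and length-centred. The 417 included a list of 27 p53 target and apoptosis genes, of which 23 were below 0 and 9 lower at p under 0.05 (33.3%). Histocompatibility and antigen processing genes had 31 of 33 below 0 (median -0.40), with H2-Q7 at -0.78 (SE 0.29) and H2-T10 at -0.64 (SE 0.21) per the authors' deposited table. Members of this family are near copies of each other, so their reads are hard to assign. The Toll-like receptor and NF-kappaB pathway had 38 of 40 below 0 (median -0.37). The receptor Tlr2 at -0.86 (SE 0.30), the adaptor Traf1 at -0.87 (SE 0.30), the inhibitor Nfkbie at -0.86 (SE 0.31) and the kinase family member Irak2 at -0.35 (SE 0.13) lay lower in the authors' deposited table. Chemokines, cytokines and their receptors had 98 of 112 below 0 (median -0.35, length-centred -0.33). At p under 0.05, 22 were lower (19.6%, against 7.51% of all genes) and 0 higher. Cxcr3, a receptor of T cells, stood at -1.48 (SE 0.47), Tnfrsf4, a costimulator of T cells, at -1.02 (SE 0.29) and Ifngr1, the interferon-gamma receptor, at -0.65 (SE 0.22) per the authors' deposited table. Serpins, S100 proteins and annexins had 15 of 36 lower at p under 0.05 (41.7%, against 7.51% of all genes). Among the 15 were S100a4 at -1.02 (SE 0.29), S100a10 at -0.99 (SE 0.32) and S100a6 at -0.90 (SE 0.29) per the authors' deposited table. In all, 11 of 11 leukocyte markers lay below 0 in the same comparison, and their part in the immune lists was not tested.

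The matrix was less uniform than the immune lists. Integrins had 19 of 22 below 0 (median -0.29), with Itgb7 at -0.90 (SE 0.37) and Itga4 at -0.78 (SE 0.33), both integrins of lymphocytes, and Itgb1 at -0.49 (SE 0.17) per the authors' deposited table. Collagens had 18 of 24 below 0 and both directions at p under 0.05. Col5a2 at -0.66 (SE 0.24) and Col18a1 at -0.59 (SE 0.25) were lower, and the neuronal membrane collagen Col25a1 at 0.56 (SE 0.24) and Col6a1 at 0.51 (SE 0.23) were higher in the authors' deposited table. Proteoglycans were balanced (15 above 0, 11 below), with Fmod, a collagen-binding proteoglycan, at 1.26 (SE 0.50) and Gpc5, a glypican, at 0.44 (SE 0.18) per the authors' deposited table. Cdh1, the cadherin of epithelia, stood at -1.38 (SE 0.48) and Mmp14, a membrane-bound matrix protease, at -0.96 (SE 0.30) per the authors' deposited table.

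Genes of DNA replication and mitosis were the lowest list outside the cell type markers, with 31 of 31 below 0 (median -0.70, length-centred -0.68) and 27 lower at p under 0.05 (87.1%, against 7.51% of all genes). The subunits of ribonucleotide reductase, which makes the building blocks of DNA, stood at -1.16 (SE 0.33) for Rrm2 and -0.48 (SE 0.15) for Rrm1 per the authors' deposited table. Ccnb1, a cyclin that starts mitosis, stood at -1.23 (SE 0.38) per the authors' deposited table. In the same comparison 11 of 11 leukocyte markers and 5 of 5 blood genes lay below 0, and their part was not tested. With E2F3a over GFP, 30 of the 31 were below 0 with a median of -0.18, against the same saline mice. Lysine methyltransferases and demethylases had 38 of 51 above 0 (median 0.11, length-centred 0.01), with 0 higher and 2 lower at p under 0.05, 1 of them Ezh2, a methyltransferase of histone H3, at -0.44 (SE 0.18) per the authors' deposited table. DNA methylation genes had 10 of 17 above 0 (median 0.09), and the 1 member at p under 0.05 was Uhrf1, which maintains DNA methylation, at -0.60 (SE 0.27) per the authors' deposited table. Among other chromatin and RNA lists, splicing proteins had 24 of 52 above 0 (median -0.01), RNA helicases 19 of 52 (median -0.04) and histone acetylation genes 25 of 41 (median 0.03). Zinc finger genes, the largest list, had 242 of 378 above 0 (median 0.06). At p under 0.05, 7 were higher and 8 lower (1.85% and 2.12%, against 1.74% and 7.51% of all genes). Solute carriers had 125 of 246 above 0, with 6 higher and 21 lower at p under 0.05 (2.44% and 8.54%, close to the 1.74% and 7.51% of all genes). Among them Slc13a3, a dicarboxylate carrier, stood at -0.45 (SE 0.11) per the authors' deposited table.

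Imprinted genes, which are expressed from the copy of 1 parent, lay higher in 28 of 34 cases (median 0.27, length-centred 0.25). Against the same saline mice, E2F3a over GFP had 29 of 34 above 0 (median 0.16), with 0 at p under 0.05 (0.955% of all genes were). With cocaine, 3 were higher and 1 lower at p under 0.05 (8.82% and 2.94%, against 1.74% and 7.51% of all genes). The 3 were Mest, an endoplasmic reticulum protein, at 0.44 (SE 0.13), Rtl1, a retrotransposon-like gene, at 0.44 (SE 0.15), and Dlk1, a Notch-related ligand, at 0.68 (SE 0.29) per the authors' deposited table. The lower member was H19, a maternally expressed noncoding RNA, at -1.27 (SE 0.25) per the authors' deposited table. Its neighbour Igf2, which is expressed from the paternal copy, stood at 0.13 (SE 0.18) there. Dlk1, Rtl1, the noncoding RNAs Meg3, Rian and Mirg, and many miRNAs lie together on chromosome 12. In the authors' deposited table Meg3 stood at 0.58 (SE 0.26), Rian at 0.22 (SE 0.14) and Mirg at 0.14 (SE 0.11). Rtl1 lies opposite transcripts of that locus. Library kits of this type do not mark the strand, so reads of overlapping genes cannot be told apart.

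Small noncoding loci lay higher at very low expression. The 167 miRNA genes had a median of 0.51 with 126 above 0, and the 66 snRNA genes a median of 0.44 with 49 above 0. Of the 167 miRNA genes, 12 were higher and 1 lower at p under 0.05, against 1.74% and 7.51% of all genes. Median SE values of the miRNA and snRNA genes were 0.66 and 0.64, against 0.157 for all genes. The 14 protein-coding genes at a mean log2 expression below -2 had a median of 0.43 as well, and the 379 genes of all types there 0.32. Subtracting the median of genes of like expression left 0.36 for miRNA loci. The libraries held poly-A RNA read for 125 bases, and the 118 loci matched to RefSeq had a median hairpin of 77 bases, so the reads are longer than most hairpins and do not measure mature miRNA. Of the 167, 103 lay inside a measured gene on the same strand (median 0.58), while their 92 host genes had a median of 0.04.

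**Figure D5:**
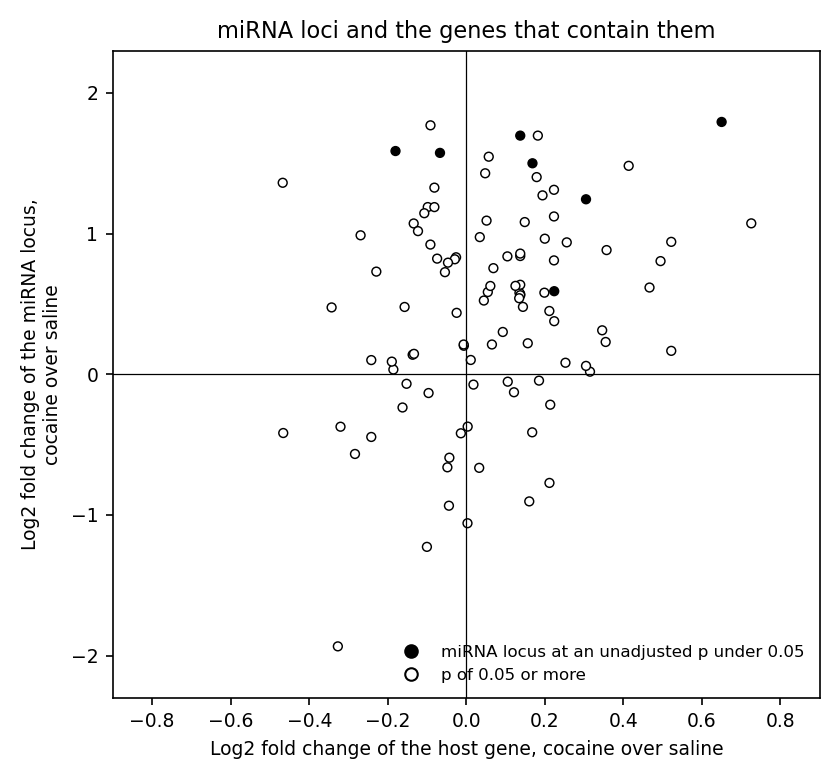
Log2 fold change of miRNA loci (y axis) against that of the gene on the same strand that contains them (x axis), cocaine over saline, for 103 loci. Filled points are loci at an unadjusted p under 0.05; most loci lie above 0, while the 92 hosts centre on a median of 0.04.

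Mir154, in the host Mirg (mm10 chromosome 12, 109738433 to 109738498, plus strand), stood at 1.70 (SE 0.47) and its host at 0.14 per the authors' deposited table. Mir421, in Ftx, a noncoding RNA of the X inactivation centre, stood at 0.59 (SE 0.26) and its host at 0.22 per the authors' deposited table. Mir874 stood at 1.79 (SE 0.52) per the authors' deposited table, and its host Klhl3, a ligase adaptor that controls WNK kinases, was itself at 0.65 (SE 0.24, unadjusted p = 0.0215). The 1 lower locus was Mir142b, of a blood cell miRNA, at -1.55 (SE 0.69), and Mir142hg, which overlaps it on the opposite strand, stood at -1.29 (SE 0.46) per the authors' deposited table. The mature sequences of 3 of these loci from RefSeq (GRCm38.p6, 5′ to 3′) are shown to identify them, with the seed, bases 2 to 8, in capitals. No 2 of the 4 share a seed.
mmu-miR-154-5p, chr12:109738438-109738459, plus strand: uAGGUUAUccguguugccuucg
mmu-miR-154-3p, chr12:109738474-109738495, plus strand: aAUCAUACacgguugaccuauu
mmu-miR-421-5p, chrX:103572966-103572986, minus strand: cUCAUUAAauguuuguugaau
mmu-miR-142b, chr11:87756906-87756925, minus strand: uCCAUAAAguaggaaacacu

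Genes at p under 0.05 were also taken by their precision. Among genes at p under 0.05, the 8 with the smallest SE on the higher side included Acvr2a at 0.41 (SE 0.09), Gdap1, a mitochondrial fission protein of neurons, at 0.19 (SE 0.08), Gpt2, a mitochondrial alanine transaminase, at 0.20 (SE 0.08) and Elovl4, which makes very long fatty acids, at 0.26 (SE 0.09) per the authors' deposited table. Fam84a at 0.23, Zfp788 at 0.17 and Zfp623 at 0.20 were also among them in the authors' deposited table. In the authors' deposited table, the genes on the other side were Ptpn12, a tyrosine phosphatase, at -0.19 (SE 0.08), Sptlc1, which starts sphingolipid synthesis, at -0.18 (SE 0.08), Dpp3, a peptidase, at -0.20 (SE 0.08) and Tars, which loads threonine onto its transfer RNA, at -0.19 (SE 0.09). Prr14 at -0.25, AU019823, Zpr1 and Rtfdc1 at -0.19 each complete that side in the authors' deposited table.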

How the data were processed

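Accumbens RNA of 1 mouse went into each library (TruSeq v2 kit, poly-A selection, single-end reads), per the labels' protocols. Bowtie2 2.1.0, TopHat2 2.0.9, HTSeq 0.6.0 and mm10 are named, without roles, in the submitters' processing notes. How values were normalized, and with which program they were tested, is not given in the sources used here. Per the file headers, the authors deposited log2 fold changes, mean log2 expression, t and log odds (score columns), and unadjusted and adjusted p-values. The adjusted p-value matched Benjamini-Hochberg over 14667 genes, and 2 raised to mean log2 expression summed to 986624, close to the total of a CPM scale. Files without counts left no room for the planned count-based fit, so the authors' moderated statistics (limma-style columns) were used without a refit, the fallback of the plan. Direction follows the table's name, cocaine over saline.

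Dividing log2 fold change by t gave the SE, and the 95% intervals rest on the 11.29 degrees of freedom that the deposited p-values imply. The E2F3a comparison implies the same 11.29, so the SE appears to draw on the spread of the E2F3a libraries as well. Transcript lengths and coordinates came from GENCODE M21 (same assembly as mm10) for 14584 genes (99.4%). Trends were removed by subtracting medians in 20 bins. Per-library depth is unknown. The genes, lists and tests were chosen with earlier results of these data known. Named genes were the 12 largest fold changes in each direction at p under 0.05 above the 25th percentile of expression, up to 4 members of each list with the smallest p, the 8 smallest SE in each direction, cell type markers and E2f3. Members of the imprinted and clock lists, miRNA loci and their hosts were named in addition, after their values were seen. Some genes that the rule names are not reported here. Python 3.11.15, numpy 2.4.6, scipy 1.17.1, pandas 2.3.3 and matplotlib 3.10.9 were used, and the scripts were tested on simulated data.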

Additional observations from a re-analysis of the deposited data

How the results depend on the processing

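No gene passed an adjusted p of 0.05 under any setting tried (0 as deposited, at 0.1, above the expression floor and after each subtraction). At an unadjusted p under 0.01 there were 19 genes higher and 181 lower. A fold over 1.3 left 156 higher, the expression floor left 690 lower, subtracting the median of genes above the 75th percentile of expression left 108 higher and subtracting the expression trend gave 389 higher. Subtracting the length trend, chosen after seeing the data, gave 257 higher and 849 lower. Of 55 lists with at least 75% of members on one side of 0, that subtraction turned the median of 3, to -0.00084 for sodium channels, 0.0082 for complex I and 0.034 for the tricarboxylic acid cycle. The medians of 23 more lists shrank by over 1.5 times, among them complexes II to IV, ATP synthase, the proteasome, both ribosomal protein lists, HECT ligases, glutamate receptors, calcium channels and synaptic adhesion molecules, and 29 did not. Dnajb14 became -0.00053. The cause was not tested. The other 5 settings turned none of the 55, and shrank between 1 and 5 by over 1.5 times. Of 273 named genes at p under 0.05, 170 stayed there after the length trend was subtracted and 209 after the expression trend. No paired analysis was possible because the deposited tables hold no values per library, and for the same reason no library could be left out and DESeq2 was not run. The median SE of 0.157 limits what single genes can show.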

Other observations

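Segments of immunoglobulin and T cell receptor genes at a mean log2 expression below -2 stood apart from the other rare transcripts, with 32 of 40 below 0 and a median of -0.88, while the 379 genes of all types at that level had a median of 0.32. Genes of the annotation class TEC, loci with transcript evidence that await experimental checking, had 61 of 71 above 0 (median 0.28). Of the 71, 3 were higher at an unadjusted p under 0.05 and 0 lower, against 1.74% and 7.51% of all genes. Antisense genes had 122 of 185 above 0 (median 0.12), while 250 lincRNA genes had a median of 0.05 and 150 processed pseudogenes a median of -0.00. By chromosome the medians ran from -0.06 on chromosome 19 (487 genes) to 0.05 on the X chromosome (506 genes). The share of lower genes at an unadjusted p under 0.05 was 11.6% on chromosome 6 and 3.78% on chromosome 18.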
